A study of Mus musculus with 3 samples.

Results

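The miRNA cargo of exosomes from normoxic mesenchymal stem cells (MSCs) was described from the single N-Exo array, 1 of the 3 arrays of the study. Exosomes are nanoscale vesicles shed by cells, and MSCs are the adherent stromal cells that grow out of bone marrow. The study measured miRNAs in exosomes of MSCs after 24 h of normoxia (N-Exo), of hypoxia (H-Exo) or of hypoxia with added GW4869 (H+G-Exo), an inhibitor of neutral sphingomyelinase. The H-Exo and H+G-Exo arrays were not used here. The normoxic MSCs came from the bone marrow of male wild type C57BL/6 mice aged 4 to 6 weeks and were used at passages 3 to 6, untreated. Their medium was collected after 24 h from 10 dishes, cleared of cells, debris and larger vesicles by centrifugation, passed through a 0.2 µm filter and ultracentrifuged, and the RNA was labelled with Cy3. How many mice the culture came from was not stated.

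All members were chosen by 1 rule on this array. Each of the 1881 mouse miRNAs on the array took the mean processed signal of its brightest probe, and it counted as detected where more than 50% of that probe's spots were well above background by the scanner software's flag. By this rule 690 of 1881 miRNAs were detected, 36.7%, and 1191 were not. The ± after a signal is the SD over the n replicate spots of 1 probe and covers technical error on 1 array. There was no second N-Exo sample, so no value has a replicate check and no test was made. Probes differ in length and base composition, so the order of signals is not an order of copy number.

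A miRNA is cut from an RNA hairpin, and either arm of the hairpin (5p or 3p) can be kept as the mature strand. Bases 2 to 8, the seed, carry most of the pairing with target messenger RNAs, so miRNAs that share a seed form a family with overlapping targets. Hairpins that lie close together on 1 strand are often cut from 1 transcript. In exosomes, miRNAs are packed into vesicles that other cells can take up, and miR-21a, miR-125b and the let-7 family are among those commonly measured in MSC vesicles.

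The mature sequences of the 15 brightest miRNAs show how unlike the abundant species were, since runs of G stand in several of them and not in others. Sequences are from RefSeq (GRCm38.p6) and are written 5′ to 3′ with the seed in capitals.
miR-1224-5p: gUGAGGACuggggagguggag
miR-21a-5p: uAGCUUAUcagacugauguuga
miR-3963: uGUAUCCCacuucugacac
miR-6366: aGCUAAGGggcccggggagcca
miR-5126: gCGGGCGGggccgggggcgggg
miR-6769b-5p: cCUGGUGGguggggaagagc
miR-125b-5p: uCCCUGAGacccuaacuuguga
let-7b-5p: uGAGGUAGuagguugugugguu
miR-6931-5p: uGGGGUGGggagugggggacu
let-7c-5p: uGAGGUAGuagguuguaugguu
miR-7036a-5p: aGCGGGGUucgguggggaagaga
miR-5100: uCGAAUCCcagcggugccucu
miR-211-3p: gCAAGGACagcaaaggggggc
miR-8110: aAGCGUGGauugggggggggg
miR-7084-5p: uAGAGGAUagagguagagagu

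The other detected let-7 miRNAs are printed because they share 1 seed, again in capitals, and differ from let-7b-5p and let-7c-5p by few bases outside it.
let-7a-5p: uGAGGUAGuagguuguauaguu
let-7d-5p: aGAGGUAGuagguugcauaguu
let-7e-5p: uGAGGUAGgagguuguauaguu
let-7f-5p: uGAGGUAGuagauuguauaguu
let-7g-5p: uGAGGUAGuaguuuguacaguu
let-7i-5p: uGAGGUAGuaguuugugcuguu
let-7k: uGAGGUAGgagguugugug
miR-98-5p: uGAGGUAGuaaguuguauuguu

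Members of some of the other bright seed families follow, grouped by seed, so that these families can be seen in their letters.
miR-125a-5p: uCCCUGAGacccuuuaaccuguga
miR-29a-3p: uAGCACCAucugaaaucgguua
miR-29b-3p: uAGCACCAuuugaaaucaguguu
miR-15b-5p: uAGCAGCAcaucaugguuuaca
miR-16-5p: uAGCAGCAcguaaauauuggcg
miR-322-5p: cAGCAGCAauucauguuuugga
miR-130a-3p: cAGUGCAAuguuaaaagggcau
miR-301a-3p: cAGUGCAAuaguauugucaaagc
miR-20a-5p: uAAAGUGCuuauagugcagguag
miR-17-5p: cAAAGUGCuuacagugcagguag

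The array held 58594 spots, of which 2164 were control spots and 56430 carried 4415 miRNA probes. A probe had 7 to 30 spots, and a miRNA 1 to 4 probes. No miRNA spot was saturated (0 spots), and 1568 outlier spots were left out of the means. Spots of a detected miRNA had a median coefficient of variation of 13.4%. Total depth has no counterpart on an array, and the single array limits the precision of every value.

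The signal was concentrated in few miRNAs. The brightest, miR-1224-5p, held 9.52% of the summed signal of the detected miRNAs, the 2 brightest together 18.1%, the 10 brightest 52.4% and the 30 brightest 73.0%. It took 104 of the 690 detected miRNAs to reach 90% of the signal. Signals ran from 87758 down to 18.8, a ratio of 4660, with a median of 99.9 over the detected miRNAs and of 6.51 over all 1881 measured. In all, 100 miRNAs were above 1000, 245 lay between 100 and 1000, and 345 were under 100.

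**Figure D1:**
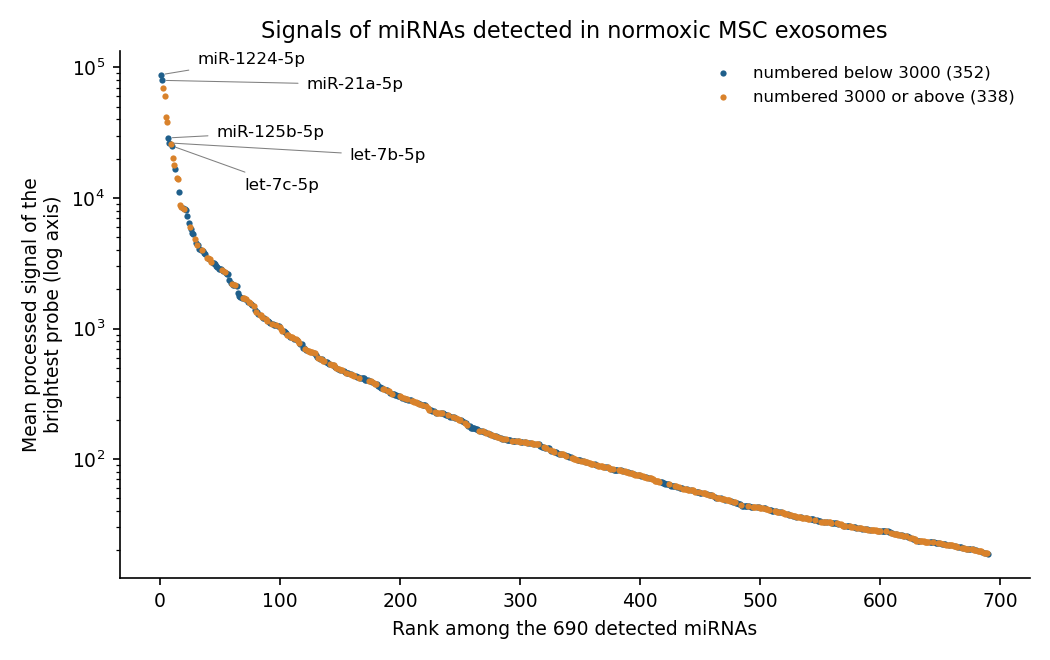
Each point is 1 of the 690 detected miRNAs, by its rank (x axis) and the mean processed signal of its brightest probe (y axis, log scale), coloured by whether its number is below 3000 (352 miRNAs) or not (338 miRNAs). The curve falls from 87758 at miR-1224-5p to under 1000 after 100 miRNAs, and both colours run through its whole length.

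By their brightest probes, the 4 miRNAs fixed as markers of the cargo were all among the 10 brightest. They were fixed with earlier results of these data known. miR-21a-5p, a miRNA abundant in stromal cells and fibroblasts, had a signal of 79440.4 ± 6424 (SD, n = 15 spots) and rank 2, and its spots ran from 66987 to 86571. miR-125b-5p, mammalian relative of the worm lin-4 RNA, had 28802 ± 749 (SD, n = 14 spots) and rank 7, with spots from 27295 to 30060.5. The spots of miR-21a-5p and miR-125b-5p did not overlap. let-7b-5p had 26351 ± 963 (SD, n = 14 spots) at rank 8 and let-7c-5p 25029 ± 1089 (SD, n = 14 spots) at rank 10. The spots of let-7b-5p, from 24120.2 to 27541, overlapped those of miR-125b-5p and those of let-7c-5p, from 23264 to 26783, so the order of let-7b-5p against either was within the technical spread. On their second probes the markers gave 15609 (miR-21a-5p), 3560.3 (miR-125b-5p), 10095.5 (let-7b-5p) and 4389 (let-7c-5p). All 4 were under the second probes of the miRNAs at ranks 3 to 6, which gave 26622 or more, so their ranks depend on the probe. By the brightest probes the markers were among the leading miRNAs, beside 6 of the 10 brightest that are not markers.

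The brightest of those was miR-1224-5p, at 87758 ± 3232 (SD, n = 15 spots), with spots from 82213 to 92372. miR-1224 is a mirtron, a miRNA whose hairpin is a short spliced intron, and its hairpin (GRCm38.p6 chr16:20604452-20604536, plus strand) lies within the span of Vwa5b2. Its spots overlapped those of miR-21a-5p, so ranks 1 and 2 were not separated by the technical spread. The hairpin of miR-21a lies within the span of Vmp1 (chr11:86584067-86584158, minus strand).

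Ranks 3 to 6 were taken by miRNAs of high number, which were annotated late and have little described function. miR-3963 had 69053 ± 2457 (SD, n = 14 spots), miR-6366 60407 ± 3126 (SD, n = 14 spots), miR-5126 41539 ± 807 (SD, n = 15 spots) and miR-6769b-5p 38278 ± 628 (SD, n = 15 spots). Their order depends on the probe, since on the second probe of each it was miR-5126 (36404), miR-6769b-5p (35068), miR-6366 (28032) and miR-3963 (26622). Their hairpins lie on chromosome 3 (151023792 to 151023862, minus strand), chromosome 16 (18165089 to 18165170, minus strand), chromosome 1 (84695839 to 84695915, plus strand, within the span of Dner) and chromosome 8 (71631047 to 71631106, minus strand, within the spans of Unc13a and Gm39195).

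Further down, miR-6931-5p had 25699.8 ± 1421 (SD, n = 15 spots), miR-7036a-5p 20056 ± 871 (SD, n = 15 spots) and miR-5100 17996 ± 713 (SD, n = 14 spots). miR-211-3p, from a hairpin within the span of the melanocyte gene Trpm1, had 16775 ± 707 (SD, n = 15 spots). miR-8110 and miR-7084-5p followed at 14289 ± 117 (SD, n = 13 spots) and 14082 ± 681 (SD, n = 14 spots), which overlapped. The rest of the 30 brightest were let-7a-5p, miR-3104-5p, miR-3960, miR-29a-3p, miR-7047-5p, let-7f-5p, let-7i-5p, miR-652-5p, let-7e-5p, miR-3473b, let-7d-5p, miR-130a-3p, miR-24-3p, miR-6996-5p and miR-199a-3p, with signals from 11078 for let-7a-5p to 4483 for miR-199a-3p.

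Splitting the miRNAs by number separated long-known from late-annotated ones. Of 945 miRNAs numbered below 3000, 352 were detected (37.2%), and of 936 numbered 3000 or above, 338 (36.1%), so both shares were near the 36.7% of all miRNAs. The later class held 47.3% of the detected signal, 5 of the 10 brightest miRNAs and 14 of the 30 brightest. Below the leading ranks it was dimmer, with a median detected signal of 82.1 against 136 and 39 of the 100 brightest against 61. Detected miRNAs of the later class also had a higher median GC content, 60.9% against 50%, and their brightest probes a median length of 14 bases against 17. Whether base composition or probe length played a part in these signals was not tested.

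Short probes were about as frequent among the 30 brightest miRNAs as among all detected ones, but more frequent at the very top. Of the 30 brightest, 13 (43.3%) had a brightest probe of 14 bases or fewer, against 279 of 690 (40.4%). Those 13 probes had a median GC content of 71.4%, and 10 of those 13 were numbered 3000 or above. The other 17 had longer probes with a median GC content of 42.9%. Among the 15 brightest, only miR-21a-5p, miR-3963, miR-125b-5p, let-7b-5p, let-7c-5p and miR-7084-5p had a brightest probe longer than 14 bases. Together the 30 had a median probe GC content of 53.1%, against 57.1% over all detected miRNAs. Across all 690 detected miRNAs the rank correlation of signal with probe GC content was near 0 (rho = -0.0046), and it was -0.10 over the 352 miRNAs numbered below 3000 and 0.21 over the 338 others, which share the array and its labelling. With probe length the rank correlation was 0.04 over all 690, 0.13 over those numbered below 3000 and -0.16 over the others.

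Each bright miRNA was also read by a second probe, usually 1 base shorter, and the 2 readings could differ widely. The probes below are written 5′ to 3′ as DNA, with the base that the shorter probe lacks in capitals, for a mirtron, 2 stromal miRNAs, a late-annotated miRNA and a minor arm.
miR-1224-5p, longer probe: ctccacctccC
miR-1224-5p, shorter probe: ctccacctcc
miR-21a-5p, longer probe: tcaacatcagtctgataagC
miR-21a-5p, shorter probe: tcaacatcagtctgataag
miR-125b-5p, longer probe: tcacaagttagggtctC
miR-125b-5p, shorter probe: tcacaagttagggtct
miR-5100, longer probe: agaggcaccgctgG
miR-5100, shorter probe: agaggcaccgctg
miR-211-3p, longer probe: gcccccctttgcT
miR-211-3p, shorter probe: gcccccctttgc

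For miR-21a-5p the longer probe gave 79440.4 ± 6424 (SD, n = 15 spots) and the shorter 15609 ± 506 (SD, n = 14 spots). For miR-125b-5p they gave 28802 ± 749 (SD, n = 14 spots) and 3560.3 ± 250.0 (SD, n = 14 spots). For miR-1224-5p the probe of 11 bases gave 87758 ± 3232 (SD, n = 15 spots) and that of 10 bases 26032 ± 269 (SD, n = 14 spots). In each of these pairs 1 base moved the signal by far more than the spread over spots. The miR-211-3p probes were close, at 16775 ± 707 (SD, n = 15 spots) and 16519 ± 169 (SD, n = 12 spots), which overlapped within 1 SD. Over the 548 detected miRNAs whose 2 or more probes were all detected, the brightest probe was a median of 1.37 times the dimmest (quartiles 1.12 and 2.50, highest 35.4). For 114 detected miRNAs with 2 or more probes, only 1 probe was detected.

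Some probes can also bind a second miRNA. In the 30 brightest, 14 brightest probes matched another mature mouse sequence with at most 1 mismatch, and 2 matched one exactly, the miR-3473b probe miR-3473a and the miR-199a-3p probe miR-199b-3p. The let-7b-5p and let-7c-5p probes were each 1 mismatch from the other miRNA, and the let-7a-5p probe from 4 other let-7 miRNAs. The miR-1224-5p probe was 1 mismatch from miR-705 and miR-7052-5p. The separate values within such pairs are therefore uncertain.

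The let-7 seed family was the brightest of all. Of the 11 array miRNAs with this seed 10 were detected, and only miR-1961 was not. Their summed signal was 94190.2 ± 430.0 (standard error over spots), 10.2% of the detected signal, and 19.4% of the signal of the detected miRNAs numbered below 3000 alone. Several let-7 probes are 1 mismatch from other let-7 miRNAs, so the sum may count 1 RNA under more than 1 name. The standard error does not cover this or the difference between probes. let-7 miRNAs restrain growth genes such as Lin28, Hmga2 and Ras in differentiated cells.

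Within the family the signals spanned 3 tiers. let-7b-5p and let-7c-5p were highest and let-7b-5p alone held 28.0% of the family. A middle tier held let-7a-5p at 11078 ± 283 (SD, n = 13 spots), let-7f-5p at 8224 ± 318 (SD, n = 14 spots), let-7i-5p at 8052 ± 453 (SD, n = 15 spots), let-7e-5p at 6372 ± 226 (SD, n = 14 spots), let-7d-5p at 5819 ± 185 (SD, n = 14 spots) and let-7g-5p at 2956 ± 104 (SD, n = 15 spots). In this tier let-7f-5p and let-7i-5p did not differ beyond their spread, and the order of the tier depends on the probe, since on the second probes let-7i-5p (3149) was above let-7a-5p (2859). miR-98-5p, at 284 ± 17.1 (SD, n = 15 spots), and let-7k, at 25.4 ± 4.56 (SD, n = 15 spots), were far below the others. The let-7k probe was 1 mismatch from let-7b-5p, and the second let-7k probe gave 3.88 ± 2.67 (SD, n = 14 spots), so the detection of let-7k is uncertain.

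The other families were led by 1 or a few members. In the miR-125 family 4 of 5 were detected, with 3.38% of the signal, and miR-125b-5p held 92.4% of the family's signal. miR-125a-5p had 1789 ± 80.9 (SD, n = 15 spots), miR-6394 536 ± 138 (SD, n = 15 spots) and miR-351-5p 50.7 ± 4.24 (SD, n = 7 spots), and miR-6367 was not detected. In the miR-29 family, repressors of collagen and other matrix genes, all 3 were detected with 1.25% of the signal: miR-29a-3p at 8355 ± 434 (SD, n = 15 spots), miR-29b-3p at 2859 ± 187 (SD, n = 15 spots) and miR-29c-3p at 336 ± 14.2 (SD, n = 14 spots).

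Signal was shared more evenly in the miR-15/16 family, which restrains cyclins and Bcl2. It had 6 of 10 members detected and 1.05% of the signal, with miR-15b-5p at 3156 ± 155 (SD, n = 15 spots), miR-16-5p at 2765 ± 98.2 (SD, n = 14 spots), miR-322-5p at 1731 ± 64.2 (SD, n = 14 spots) and miR-15a-5p at 1674 ± 49.4 (SD, n = 15 spots). miR-322-5p and miR-15a-5p overlapped. miR-195a-5p and miR-497a-5p were dimmer, at 172 and 138, and miR-195b, miR-6342, miR-6353 and miR-6419 were not detected.

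The miR-130/301 family had 4 of 7 members detected and 0.782% of the signal. miR-130a-3p, known for its part in endothelial and haematopoietic cells, had 5434 ± 475 (SD, n = 15 spots), miR-301a-3p 1074 ± 37.1 (SD, n = 14 spots), miR-721 651 ± 31.0 (SD, n = 7 spots) and miR-130b-3p 45.2 ± 4.93 (SD, n = 15 spots). miR-130c, miR-6341 and miR-6389 were not detected. The family of miR-17, miR-20, miR-93 and miR-106, which promotes cell cycle entry, had 5 of 6 detected. Its highest was miR-20a-5p at 3426 ± 135 (SD, n = 15 spots), then miR-106b-5p at 2347 ± 99.1 (SD, n = 15 spots), miR-20b-5p at 756 ± 76.9 (SD, n = 14 spots), miR-93-5p at 286 ± 8.25 (SD, n = 14 spots) and miR-17-5p at 113 ± 23.8 (SD, n = 15 spots), with miR-6383 not detected. The miR-17-5p probe matches miR-106a-5p exactly and is 1 mismatch from miR-20a-5p and miR-20b-5p, so the value of miR-17-5p is uncertain.

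Families were formed only from the 1608 of 1881 miRNAs with a RefSeq sequence. Among these, late-annotated miRNAs made up 2 of the 8 brightest families. miR-23b-3p, at 2656, had no such sequence and could not be joined to a family, nor to that of miR-23a-3p at 4021. The order of families near the eighth could therefore differ with all sequences at hand. miR-7047-5p, at 8258 ± 179 (SD, n = 15 spots), held 97.2% of a family in which miR-6965-5p had 238 ± 47.2 (SD, n = 15 spots) and miR-3103-5p was not detected. miR-3473b, at 6028 ± 186 (SD, n = 15 spots), and miR-3473e, at 303 ± 17.5 (SD, n = 15 spots), formed the other. Over the array, 55 seed families had 2 or more detected members and together held 143 miRNAs and 24.7% of the signal. Of the 174 families with 2 or more members on the array, 35 were detected in full and 64 not at all. Over all array miRNAs 36.7% were detected, and these counts were not compared with what family size alone would give.

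**Figure D2:**
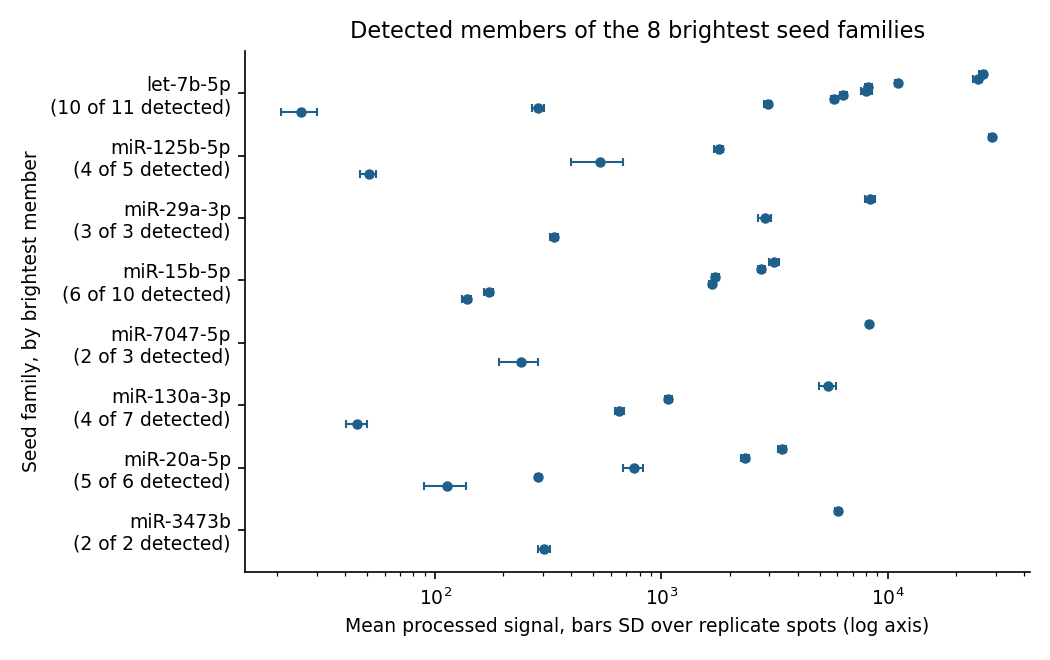
Each point is a detected member of 1 of the 8 seed families with the highest summed signal, formed from miRNAs with a RefSeq sequence. The x axis is the mean processed signal (log scale), and bars are the SD over replicate spots. The let-7 family has 8 members above 2000, while the miR-125, miR-7047 and miR-3473b families rest on 1 bright member each.

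Arms were compared over 774 pairs of 5p and 3p arms that the array measures. Both arms were detected in 95 pairs, 1 arm alone in 367 and neither in 312. The lone arm was 5p in 230 pairs and 3p in 137, so 5p made up 62.7%. That excess lay mostly in the later class, where 73.1% of the lone arms were 5p, against 53.6% of those numbered below 3000. Later 5p arms had a median GC content of 57.1% and later 3p arms of 54.5%, while the arms numbered below 3000 were both at 47.6%, and the part of GC content in the excess was not tested.

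Of the pairs numbered below 3000, 196 had 1 arm detected alone and 56 had both. miR-21a-5p, at 79440.4, faced miR-21a-3p at 18.8 ± 3.59 (SD, n = 7 spots), the dimmest of all detected miRNAs. let-7b-5p, at 26351, faced let-7b-3p at 34.8 ± 4.91. For miR-1224, miR-125b, let-7a, let-7c, let-7d, let-7e and let-7i the 5p arm was detected and the 3p arm was not. The 3p arm led in miR-29a, miR-130a and miR-24, whose 5p arms were not detected. let-7f-5p comes from hairpins with separate 3p arms, of which let-7f-1-3p was detected at 33.5 ± 2.52 and let-7f-2-3p was not.

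miR-211 was read from the arm opposite to its better-known strand. miR-211-5p, the strand studied in melanocytes and a relative of miR-204-5p, gave 3.06 ± 3.07 (SD, n = 7 spots) and was not detected, while miR-211-3p gave 16775. miR-204-5p was not detected either, at 1.33 ± 2.27 (SD, n = 15 spots). Both probes of miR-211-3p were detected, and they are 12 and 13 bases long. The shorter probe is contained in the longer, so the readings are not independent.

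miR-652 had both arms detected with the 5p arm brighter, at 7329 ± 870.0 (SD, n = 15 spots) against 401 ± 14.8 for miR-652-3p. miR-199a, a stromal miRNA with both arms in use, had 4483 ± 240.2 (SD, n = 15 spots) on the 3p arm and 1084 ± 89.7 (SD, n = 15 spots) on the 5p arm. The miR-199a-3p probe also matches miR-199b-3p exactly, so the comparison of these arms is uncertain.

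Near-equal arms were few. Of the 95 pairs with both arms detected, 26 had signals less than 2-fold apart and 37 more than 10-fold, with a median ratio of 4.93. miR-140, a cartilage miRNA, had 546 ± 27.3 (SD, n = 14 spots) on the 5p arm and 584 ± 14.1 (SD, n = 15 spots) on the 3p arm, and miR-17, whose 5p value is uncertain, had 113 ± 23.8 and 144 ± 14.8 (SD, n = 15 spots). The arms of miR-598 (30.7 and 28.0), miR-351 (50.7 and 45.8), miR-664 (23.2 and 29.1) and miR-28a (164 and 121) were also close, all at low signals. In these pairs other than miR-28a the arms differed by less than the sum of their SDs.

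**Figure D3:**
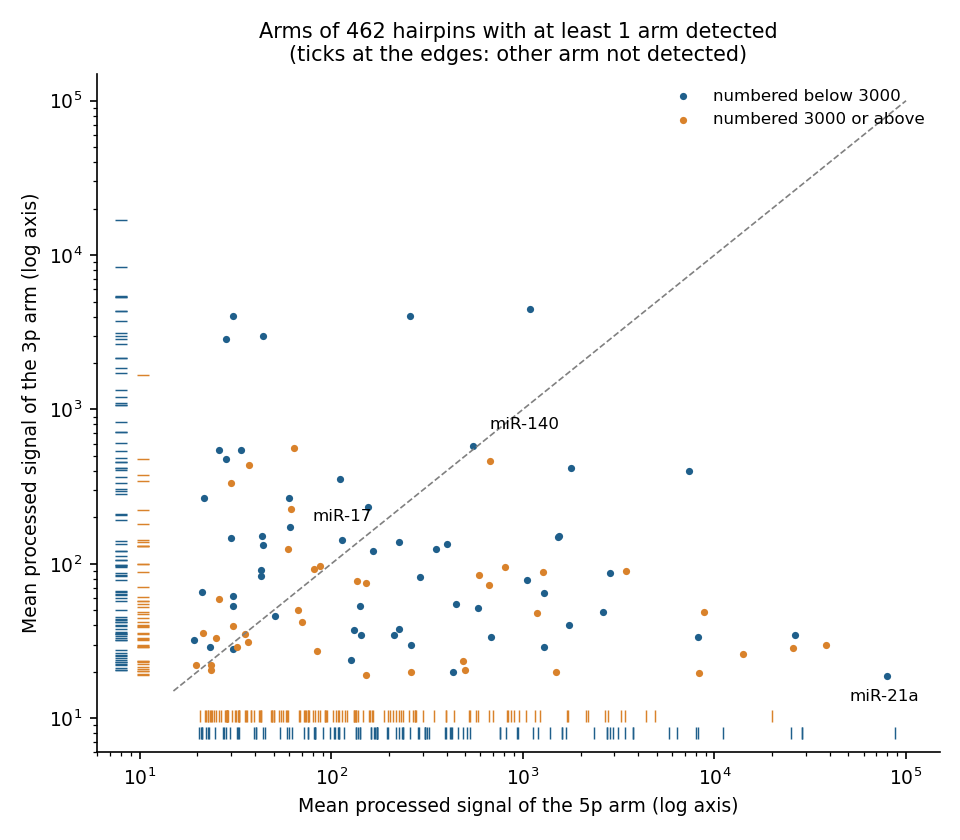
Each point is a hairpin with both arms detected (95 pairs), by the mean processed signal of its 5p arm (x axis, log scale) and 3p arm (y axis, log scale), and ticks along the edges are pairs with 1 arm detected alone (367 pairs). Most points lie well away from the dashed line of equal signal, miR-140 lies near it, and the orange ticks of the later class are denser along the 5p edge.

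Genomic clusters were runs of RefSeq hairpins on 1 strand with gaps of at most 10000 bases. Of 68 clusters on the array 46 held 2 or more detected miRNAs, and 9 held none. Over all array miRNAs 36.7% were detected, and clusters differ in size, with 66 array miRNAs in 1 of those below. These counts were not compared with what size alone would give. The 46 held 133 detected miRNAs and 18.3% of the signal. Being on the array next to a detected miRNA did not mean being detected, as the largest clusters show.

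The miR-17~92 cluster, a driver of proliferation, lies on GRCm38.p6 chr14:115043671-115044506 (plus strand) and had 7 of 11 miRNAs detected. miR-19b-3p led with 4330 ± 173 (SD, n = 14 spots), with miR-20a-5p at 3426 ± 135 and miR-92a-3p at 2987 ± 120 (SD, n = 14 spots). Below these lay miR-18a-5p at 489 ± 23.4 and miR-19a-3p at 475 ± 19.6, which overlapped, then miR-17-3p and miR-17-5p. The highest and lowest were 38.3-fold apart in signal, on probes of different sequence and with miR-17-5p read by a probe that also matches miR-106a-5p.

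The miR-106a~363 cluster, its copy on chromosome X (52741693 to 52742567, minus strand), had 6 of 10 detected. It shares the mature miR-19b-3p and miR-92a-3p with miR-17~92, so these cannot be assigned to either. Of the members it does not share, miR-20b-5p had 756 (rank 118), and miR-92a-2-5p at 44.1, miR-18b-3p at 32.2 and miR-106a-3p at 22.8 were below the median detected signal.

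The miR-322/503 cluster on chromosome X (53047997 to 53054349, minus strand) had 7 of 11 detected. miR-322-5p and miR-503-5p, which slow the cell cycle and favour myogenic differentiation, had 1731 ± 64.2 and 509 ± 28.0 (SD, n = 15 spots). miR-542-5p, at 143 ± 19.9 (SD, n = 7 spots), and miR-322-3p, miR-542-3p, miR-450a-2-3p and miR-450b-3p, between 20.4 and 40.5, were lower.

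The miRNAs of the imprinted Dlk1-Dio3 region are transcribed from the maternal chromosome. The main run of hairpins in this region, on chr12:109709060-109747960 (plus strand), had 7 of 66 miRNAs detected, well under the 36.7% of the array. These were miR-494-3p at 2167 ± 225 (SD, n = 15 spots), miR-300-3p at 1067 ± 209 (SD, n = 15 spots), miR-3072-5p at 439 ± 43.4, miR-134-5p at 227 ± 25.9, miR-758-5p at 161 ± 45.0, miR-541-5p at 141 ± 65.6 and miR-668-3p at 25.7 ± 3.80. The second run (109563692 to 109595388) had 5 of 26, led by miR-432 at 629 ± 154 (SD, n = 10 spots), with miR-770-3p, miR-3070-2-3p, miR-3070-3p and miR-770-5p between 148 and 30.0. A run within the span of Rian (109611500 to 109618336) had 2 of 6, near the share of the array, with miR-370-3p at 66.7 and miR-341-3p at 41.9.

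Other clusters were less even in detection. The run within the span of Clcn5 on chromosome X (7237683 to 7248497) had 5 of 9, with miR-188-5p at 2843 ± 266 (SD, n = 7 spots), miR-500-3p at 602 ± 26.2 (SD, n = 14 spots), miR-362-3p at 172, miR-362-5p at 61.0 and miR-501-3p at 39.5. The miR-290 cluster of pluripotent cells on chromosome 7 (3218626 to 3220841) had 5 of 11, at most 225 ± 37.4 (SD, n = 8 spots) for miR-290a-5p, and 4 of the 5 were 5p arms. The let-7a/f/d cluster on chromosome 13 (48536012 to 48538272) had 4 of 6 and held 2.73% of the signal, the most of the 7 clusters with 4 detected. That share counts let-7f-5p, at 8224, which also comes from a hairpin on chromosome X. Its signal cannot be assigned to either hairpin.

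**Figure D4:**
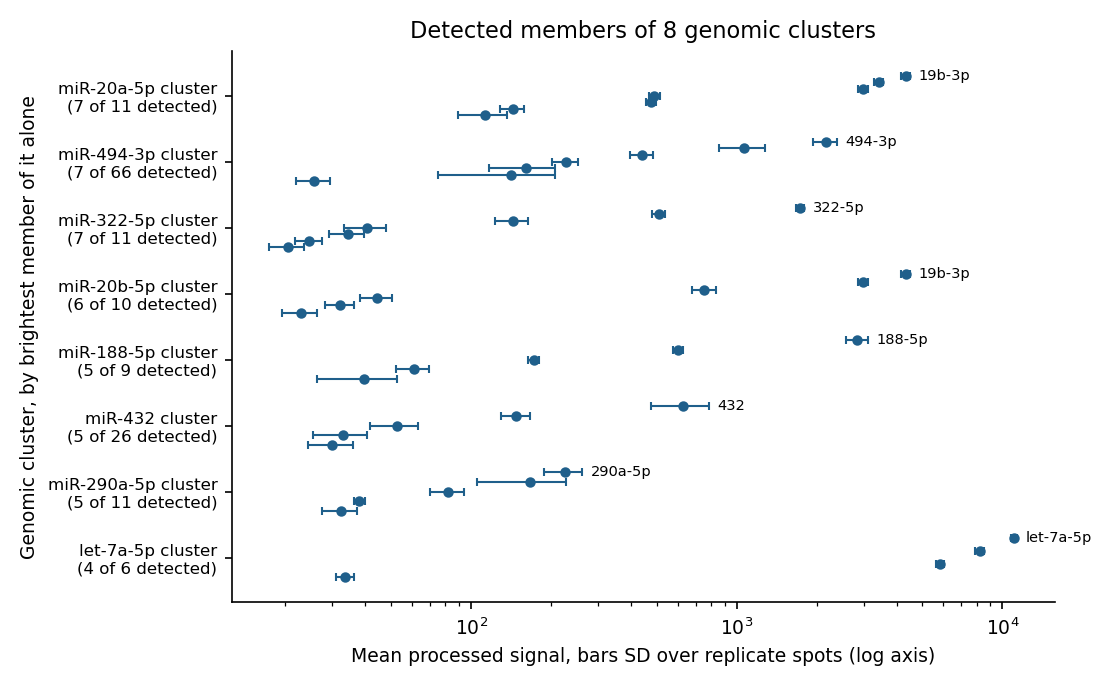
Each point is a detected member of 1 of the 8 clusters with most detected miRNAs (ties taken by share of signal), by mean processed signal (x axis, log scale), with the SD over replicate spots as bars, and each row is named by the brightest member that no other row shares. The miR-20a-5p row (miR-17~92), the miR-20b-5p row (miR-106a~363) and the let-7a-5p row hold members above 3000, while the miR-290a-5p row stays at or under 225.

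Lists of miRNAs with known roles were then read against the 36.7% detected over the array and the median signal of 6.51 over all miRNAs. The lists were chosen with earlier results of these data known, so their shares are description and not independent support. All 22 of the mesenchymal and fibroblast list were detected, with a median signal of 1843 and 16.7% of the detected signal. After miR-21a-5p and miR-125b-5p came miR-29a-3p and miR-24-3p, the latter at 5331 ± 185 (SD, n = 14 spots). The lowest was miR-145a-5p, a smooth muscle and stromal miRNA, at 109 ± 11.9 (SD, n = 15 spots). No member of the list was missing, and its miRNAs spread over most of the signal range.

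Lists tied to MSC functions were detected in large part. Of the bone, cartilage and fat list 12 of 16 were detected, with a median signal of 565 over the list. miR-196a-5p (3762 ± 145, SD, n = 7 spots), miR-29b-3p, miR-30a-5p (2847 ± 107, SD, n = 10 spots) and miR-103-3p (1726 ± 106, SD, n = 14 spots) led it, and miR-138-5p, miR-204-5p, miR-211-5p and miR-335-5p were not detected. The angiogenesis list had 14 of 16 detected with a median of 622, led by miR-130a-3p, miR-23a-3p (4021 ± 144, SD, n = 15 spots), the hypoxia-inducible miR-210-3p (3133 ± 141, SD, n = 15 spots) and miR-92a-3p. The 2 that were not detected were both arms of the endothelial miR-126a.

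The cardiac protection list had 12 of 13 detected and a median of 3742, with miR-21a-5p, miR-125b-5p, miR-24-3p and miR-199a-3p at its head and miR-499-5p not detected. All 10 of the inflammation list were detected, with a median of 458. Its 4 brightest were miR-21a-5p, miR-125b-5p, miR-125a-5p and miR-155-5p, the last, a miRNA of activated immune cells, at 942 ± 42.1 (SD, n = 15 spots). All 9 of the p53-linked list were detected at a lower median of 109. It was led by miR-22-3p (3742 ± 206, SD, n = 15 spots), miR-107-3p (831 ± 42.1, SD, n = 14 spots), miR-34b-5p (308 ± 27.5, SD, n = 15 spots) and miR-34c-5p (307 ± 11.3, SD, n = 15 spots). Several lists share members, so these counts are not independent.

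Of the 56 miRNAs on the 7 lists of other cell types 17 were detected, 30.4%, a share not far from the 36.7% of the array, and for muscle and for liver and pancreas it was above that share. Their signals were at most 238, and some were above the median of 99.9 over all detected miRNAs. Of 7 blood cell miRNAs 2 were detected, the red cell miR-451a at 63.7 ± 5.76 (SD, n = 15 spots) and the myeloid miR-223-3p at 32.9 ± 5.83 (SD, n = 15 spots), while miR-142a-3p, miR-144-3p and miR-150-5p were not. Both endothelial miRNAs were not detected, with signals of 3.92 and 4.32. Of 7 muscle miRNAs 3 were detected, miR-206-3p at 41.9, miR-133a-3p at 25.1 and miR-133b-3p at 22.3, and miR-1a-3p, miR-208a-3p, miR-208b-3p and miR-499-5p were not. miR-208a-5p, an arm not on the list, was detected at 53.8 ± 5.66 (SD).

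Of the 10 epithelial miRNAs 3 were detected. miR-96-5p (238 ± 18.3, SD, n = 15 spots), miR-182-5p (169 ± 13.3, SD, n = 14 spots) and miR-183-5p (127 ± 9.49, SD, n = 15 spots) form 1 cluster that sensory cells also use. The listed 3p arms of miR-200a, miR-200b and miR-200c, miR-141-3p, miR-203-3p, miR-205-5p and miR-429-3p were not detected. The opposite arms of the miR-200 cluster on chromosome 4, which are not on the list, were in part: miR-200a-5p had 308 ± 58.4 (SD) and miR-200b-5p 162 ± 24.3 (SD). Of neuronal miRNAs 2 of 7 were detected, miR-9-3p at 98.9 ± 6.03 (SD, n = 15 spots) and miR-128-3p at 35.2, and miR-124-3p was not.

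In the liver and pancreas list 3 of 6 were detected, miR-217-5p at 198 ± 49.7 (SD, n = 7 spots), miR-192-5p at 40.5 and miR-194-5p at 21.3, with miR-122-5p and miR-375-3p not detected. Of 17 pluripotency miRNAs 4 were detected, miR-290a-5p at 225, miR-295-5p at 167 ± 61.5 (SD, n = 7 spots), miR-292a-5p at 82.1 and miR-290a-3p at 38.0, and no member of the miR-302/367 group was. All 17 detected miRNAs on these lists were at or under 238 in signal, while the mesenchymal list had a median of 1843. Presence of RNA from other cells was not measured in any other way.

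**Figure D5:**
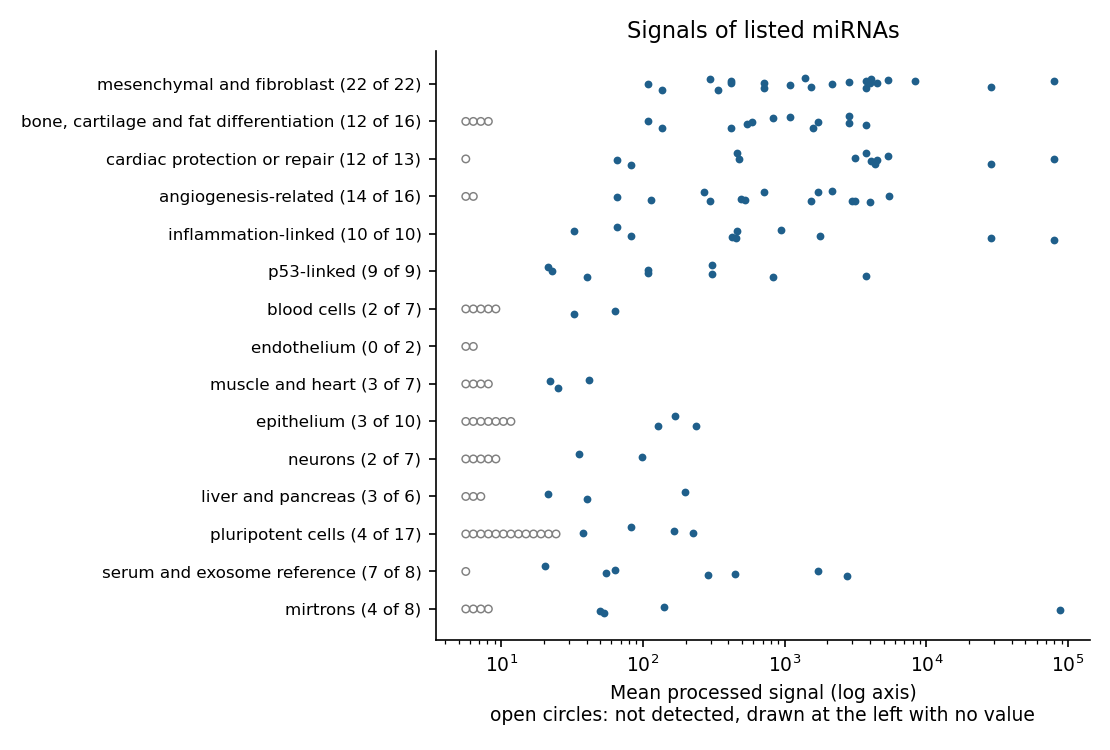
Each filled point is a detected miRNA of a list, by mean processed signal (x axis, log scale), and open circles at the left stand for miRNAs of the list that were not detected and have no value there. The mesenchymal list is filled throughout, from 109 to 79440.4, while the lists of other cell types stay at or under 238.

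The culture medium was labelled as holding 10% fetal bovine serum, and serum carries vesicles whose conserved miRNAs share their sequence with those of the mouse. Of 8 miRNAs often used as serum or exosome references 7 were detected. miR-16-5p (2765 ± 98.2, SD, n = 14 spots), miR-103-3p, miR-423-5p (447 ± 21.3, SD, n = 15 spots) and miR-93-5p led, and miR-191-5p, at 3.28 ± 1.67 (SD, n = 7 spots), was not detected. The red cell miR-451a, abundant in serum, stood at 63.7. The part of serum in these signals was not tested.

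Of 8 mirtron arms 4 were detected. miR-1224-5p apart, they were dim, with miR-877-5p at 141 ± 16.8 (SD, n = 7 spots), miR-877-3p at 53.4 ± 5.94 (SD, n = 8 spots) and miR-702-3p at 50.1 ± 5.49 (SD, n = 15 spots). miR-1224-3p, miR-702-5p and both arms of miR-1981 were not detected.

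Sequence motifs described for exosomal sorting were counted in the mature sequences, read 5′ to 3′ on the RNA strand. The motif GGAG, which the RNA-binding protein hnRNPA2B1 is reported to bind in exosomal miRNAs, stood in 26.3% of the 586 detected miRNAs with a sequence, in 14.4% of all 1608 and in 7.53% of the 1022 not detected. The same order held below 3000 (15.2% of 289 detected against 6.85% of 496 not detected) and at 3000 or above (37.0% of 297 against 8.17% of 526). The motifs CCCU and GGCU, also reported in sorted miRNAs, were nearer to their share over the array, at 11.9% against 11.7% and at 14.7% against 13.1%.

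A run of GGGG, counted as a second G-rich word that can stand in the same sequence as GGAG, stood in 21.0% of the detected and 5.77% of the undetected miRNAs. The median GC content was 57.1% in detected and 50% in undetected miRNAs. GGAG was thus more frequent among the detected miRNAs together with another G-rich word and with GC content. The part of GC content, of probe binding and of sorting in these shares was not tested.

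At the threshold of detection, signal and detection were not in strict order. The 3 dimmest detected miRNAs were miR-21a-3p at 18.8 (57.1% of its spots well above background), miR-6977-3p at 19.0 (53.3%) and miR-7087-3p at 19.1 (53.3%). The 3 brightest that were not detected were miR-193a-5p at 20.8 (42.9%), miR-7053-5p at 20.5 (46.7%) and miR-7650-3p at 20.1 (46.7%). These 6 overlap within their spot SDs.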

How the data were processed

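RNA of N-Exo exosomes was hybridized to a one-colour Agilent mouse miRNA array (release 21). Per the submitters' processing notes, the authors used Agilent Feature Extraction 10.7.1.1. The deposited array file holds an intensity per spot, already background-subtracted by the scanner software, and no further scaling was applied. The deposited value table holds log2 values whose normalization was not stated in those sources. Within N-Exo it correlated with the log2 signal at r = 0.963 over the 690 detected miRNAs, its column median was -3.32, and it was used only as an alternative. The labels' protocols name kits for cDNA and amplified cRNA, which are unusual for miRNA arrays, so the labelling method is unclear. Per the design text 3 samples were processed of each exosome kind, while N-Exo is 1 array here, and pooling was not stated.

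Control and outlier spots were left out, spots were averaged per probe, and the brightest probe stood for its miRNA. The miRNA was detected where more than 50% of all spots of that probe were well above background. Shares are of the summed signal of detected miRNAs. Names were matched to RefSeq mature sequences (GRCm38.p6) for 1608 of 1881 miRNAs and 586 of the 690 detected, which held 95.3% of the signal. Seeds, arms, hairpin positions, clusters and motifs come from these. Genes named by position span the hairpin on either strand.

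The members and the 15 lists were chosen with earlier results of these data known. Named were the 30 brightest miRNAs and 4 markers, the 4 brightest of each list and every detected marker of another cell type, members of the 8 brightest seed families, arms of the 12 brightest and 6 nearest long-known hairpins, 8 clusters and 3 miRNAs on each side of the threshold. Any other miRNA named was chosen after its values were seen. Alternatives were a sum over probes, the software's total, the median over spots, outliers kept, normexp background (limma 3.58.1, offset 50), 2 stricter detection rules, the value table, other gaps and let-7 by name. Python 3.11.15 was used.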

Additional observations from a re-analysis of the deposited data

How the results depend on the processing

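All 7 summary results were recomputed under the alternatives, and the 4 counts stayed within 1.5 times their value. The number of detected miRNAs ran from 548 (every probe detected, an alternative chosen after seeing the data) and 585 (every spot well above background) to 817 (the software's total). Hairpins with a lone arm ran from 336 to 378 and clusters from 39 (gap up to 2000 bases) to 58 (50000 bases), and the mesenchymal list stayed at 22 of 22.

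The shares moved by more than their standard error over spots under several settings. The 10 brightest held 52.4%, against 50.8% with the sum over probes, 45.8% with the software's total, 49.7% with normexp, 54.5% in the value table, 52.5% with every spot well above background and 52.8% with the brightest probe 3 SDs above 0. The let-7 family held 10.2%, against 8.71%, 8.12%, 9.76% and 8.69% under the first 4 of these and 10.3% with the last. The later class held 47.3%, against 51.2% with the sum, 52.6% in the value table, 47.2% with the median over spots and 47.0% with 3 SDs above 0. Among alternatives chosen after seeing the data, requiring every probe gave 53.3%, 10.4% and 47.5%, and miRNAs numbered below 3000 alone gave 61.8% for their 10 brightest and 19.4% for let-7. The cause of these shifts was not tested.

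Over 9 settings miR-1224-5p stayed at rank 1, miR-21a-5p ranked 2 to 3, let-7b-5p 8 to 10, miR-125b-5p 7 to 13, let-7c-5p 10 to 14 and miR-211-3p 10 to 13. None of the 9 settings read the second probe alone. On second probes miR-1224-5p (26032) and miR-21a-5p (15609) were under miR-5126 (36404), miR-6769b-5p (35068), miR-6366 (28032) and miR-3963 (26622). No paired analysis was possible because N-Exo is 1 array. The single array, the threshold of detection near a signal of 20 and the disagreement of probes limit every order given.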

Other observations

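The clusters and probes here were chosen after their values were seen. In the cluster of miR-23a, miR-27a and miR-24 on chromosome 8 (GRCm38.p6, 84208518 to 84208921, plus strand), 4 of 6 miRNAs were detected: miR-24-3p at 5331 ± 185 (SD, n = 14 spots), miR-23a-3p at 4021 ± 144 (SD, n = 15 spots), miR-27a-3p at 2159.7 ± 68.2 (SD, n = 15 spots) and miR-23a-5p at 258 ± 76.6 (SD, n = 7 spots). In the cluster of miR-199a and miR-214 on chromosome 1 (162217814 to 162223477, plus strand), within the spans of Dnm3 and Dnm3os, 4 of 4 miRNAs were detected. miR-199a-3p had 4483 ± 240.2 (SD, n = 15 spots), miR-214-3p 4043 ± 208 (SD, n = 14 spots), miR-199a-5p 1084 ± 89.7 (SD, n = 15 spots) and miR-214-5p 30.8 ± 5.03. The miR-199a-3p probe also matches miR-199b-3p exactly, so its signal cannot be assigned to this cluster alone. Both miR-199a arms also come from a hairpin on chromosome 9, and miR-24-3p also comes from one on chromosome 13. The signals of these miRNAs cannot be assigned to 1 locus either.

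miR-6917-5p had 4395 ± 1614 (SD) on 1 probe and 12.9, not detected, on its other. miR-3104-5p, among the 30 brightest, had 8831 ± 966 (SD, n = 15 spots) on a probe of 13 bases and 465 ± 95.2 (SD, n = 15 spots) on one of 12 bases.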
